A study of Mus musculus with 2 samples.

Results

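The genes described here encode NFE2 and the proteins it works with in mouse erythroblasts, the marrow cells that mature into red blood cells. They are the cap'n'collar (CNC) activators Nfe2, Nfe2l1, Nfe2l2 and Nfe2l3, the small MAF genes Maff, Mafg and Mafk, the BACH repressors Bach1 and Bach2, and Keap1, which controls NFE2L2. These 10 genes were chosen by symbol out of 43346 Ensembl genes and not by a cut on their values, although earlier results of these data were known. All 10 were found in both gene tables. The data are RNA-seq of total RNA depleted of ribosomal RNA, from 2 libraries of a single group. The cells were primary, from C57BL/6J males of 5 to 6 weeks of age, with no treatment or genotype contrast in the labels. The replicates are separate biosamples that name 1 donor record, their spread may therefore be technical in part, and no comparison of conditions was possible.

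NFE2, its CNC relatives and the BACH proteins are basic leucine zipper (bZIP) factors that bind DNA as heterodimers with a small MAF protein. Small MAF proteins have a DNA-binding region but no activation domain, so the partner sets whether a dimer activates or represses. NFE2 with a small MAF is the classical NF-E2 complex of the globin locus control region and is also required for platelet formation by megakaryocytes. BACH1 competes for the same class of sites and is released from DNA by heme, and KEAP1 holds NFE2L2 (NRF2) for ubiquitination in unstressed cells.

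The shared DNA-binding surface is visible in the coding sequence, and shows which members are built alike. The 9 bZIP members each had 1 match to a basic-region signature, and Keap1, which is not a DNA-binding protein, had none. The signature was written to allow the residues of every subfamily, so it locates the region and does not test it. Each line gives 66 bases of coding sequence, 5′ to 3′, from GENCODE release M21 on GRCm38, with the 9 signature codons in capitals.
Nfe2 (chr15:103248693-103248758, minus strand, exon 3 of 3): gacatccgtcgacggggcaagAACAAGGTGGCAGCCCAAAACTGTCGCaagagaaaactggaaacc
Nfe2l2 (chr2:75676216-75676281, minus strand, exon 5 of 5): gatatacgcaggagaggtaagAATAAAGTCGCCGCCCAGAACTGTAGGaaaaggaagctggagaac
Nfe2l1 (chr11:96819461-96819526, minus strand, exon 5 of 5): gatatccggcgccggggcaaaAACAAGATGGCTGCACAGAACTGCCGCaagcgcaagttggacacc
Mafg (chr11:120629548-120629613, minus strand, exon 3 of 3): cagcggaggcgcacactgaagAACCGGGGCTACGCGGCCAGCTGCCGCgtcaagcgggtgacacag
Mafk (chr5:139800208-139800273, plus strand, exon 3 of 3): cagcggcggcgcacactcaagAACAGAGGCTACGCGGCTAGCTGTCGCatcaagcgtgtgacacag
Bach1 (chr16:87722510-87722575, plus strand, exon 4 of 5): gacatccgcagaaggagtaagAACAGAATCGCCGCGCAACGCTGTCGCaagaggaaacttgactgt
Bach2 (chr4:32575348-32575413, plus strand, exon 4 of 5): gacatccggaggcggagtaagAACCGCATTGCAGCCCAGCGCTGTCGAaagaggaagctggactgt
Over these 22 codons, the 10 pairs within a subfamily encoded the same residue at 19 to 22 positions, and Bach1 and Bach2 matched at all 22. The 8 CNC-BACH pairs matched at 16 to 17 positions. The 18 pairs of a small MAF with a CNC or BACH member matched at only 7 to 8. All of these counts include the residues that the signature fixes. At the base level the members remained distinct: the longest identical run between transcripts of any 2 members was 23 bases, in Maff with Mafg and in Mafg with Mafk. The standard deviation that the authors' tables attach to each gene count was 0 for every member in both libraries, except 0.19 counts for Mafg in replicate 2.

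The libraries held 37312621 and 22464713 expected counts in replicates 1 and 2. Nuclear protein-coding genes took 57.7% and 52.4% of the counts, but only 11.3% and 6.89% of deposited TPM (a length-corrected share of all listed features). Levels are therefore given as coding-scaled TPM, rescaled so that in each library 21461 nuclear protein-coding genes total 1000000. Errors are SD over n = 2 libraries, values joined by "and" are replicates 1 and 2, and a gene counted as detected at 1 coding-scaled TPM or more in both. All 9 erythroid markers were detected, with a summed level of 404914 and 346995, which matches the label. Markers of other bone marrow cells were present too. All 8 neutrophil markers were detected (summed level 19790 and 19435), as were all 7 monocyte and macrophage markers (210 and 190) and all 5 mast cell, basophil and eosinophil markers (757 and 644). Of megakaryocyte markers 3 of 6 were detected (100.0 and 116), of B cell markers 2 of 6 (162 and 123, of which Ighm was 153 and 119) and of T and NK cell markers 1 of 5 (8.00 and 3.92), with Pax5, Cd3d and Cd8a at 0 in both libraries. In bulk RNA, fewer cells of a type and less RNA per cell cannot be told apart.

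Of the 10 members, 7 were detected: Nfe2, both Mafk and Mafg, Bach1, Nfe2l2, Nfe2l1 and Keap1. Of the 12895 nuclear protein-coding genes with any signal, 73.0% met the same limit. Nfe2 stood far above the rest, the small MAF genes Mafk and Mafg followed, and Bach1, Nfe2l2 and Nfe2l1 formed a lower tier. Each subfamily also had members at or near 0 counts: Nfe2l3 among the CNC activators, Maff among the small MAFs and Bach2 among the repressors.

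**Figure D1:**
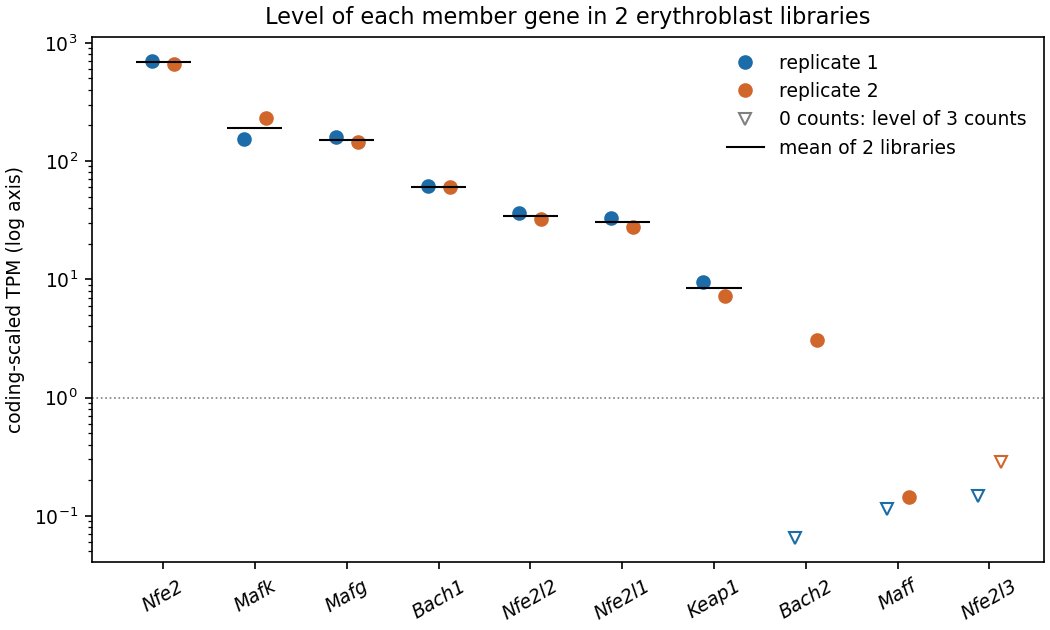
Coding-scaled TPM of the 10 genes on a log axis, 1 filled point per library, with a bar at the mean; open triangles mark a library with 0 counts, drawn at the level of 3 counts, and the dotted line is the detection limit of 1. Nfe2 lies at 706 and 660, above Mafk and Mafg, whose points interleave, and Bach2, Maff and Nfe2l3 each have at least 1 library at 0.

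Nfe2 (chr15:103248212-103258403, minus strand), the tissue-restricted subunit of NF-E2, had 11682 expected counts in replicate 1 and 6360 in replicate 2. Its coding-scaled TPM was 706 and 660 (683 ± 32.3), at percentile 98.7 of nuclear protein-coding genes. The libraries were thus close to each other, with a coefficient of variation of 4.73% where 304 genes of like level had a median of 11.5%. In both libraries Nfe2 stood above all 18 genes of a fixed list of other bZIP factors, drawn from the JUN, FOS, ATF, BATF, CREB and C/EBP names. That list includes Cebpz, which lacks a bZIP domain despite its symbol. The nearest of the 18 was Atf4, a stress-response factor, and Nfe2 exceeded it 4.75-fold and 4.39-fold. Nfe2 also exceeded 12 of 13 erythroid transcription factors in both libraries, with only Sox6 (708 and 888, 798 ± 127) higher. In replicate 1 Sox6 and Nfe2 were almost level. The ratio of Nfe2 to Gata1, the master erythroid GATA factor, was 13.4 and 21.5, and that to Klf1, an activator of beta globin, was 5.73 and 7.43. Lmo2, a bridging protein of the GATA1-TAL1 complex, was nearly level with it, at ratios of 1.19 and 1.02. By expected counts, which are not corrected for length, Lmo2 was above Nfe2 in both libraries, at 11829 and 6801.

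Nfe2 is also used by megakaryocytes and mast cells. In the mixed list of mast cell, basophil and eosinophil markers, Prg2, an eosinophil granule gene, made up most of the sum at 530 and 450. Mcpt8, a basophil gene, was next at 114 ± 8.70, and Epx, an eosinophil gene, was at 44.4 ± 16.7. The mast cell and basophil genes Cpa3 and Ms4a2 were at 26.6 ± 6.07 and 24.7 ± 9.36, Cpa3 being named after its values were seen. Among megakaryocyte markers, Itga2b reached 91.4 ± 19.5, Pf4 8.77 ± 6.45 and Gp9 5.49 ± 0.230. Neutrophil markers, at a summed level of 19790 and 19435, were far above both of these lists. The part of any of these cells in the level of Nfe2 was not tested.

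The 3 nuclear protein-coding genes nearest to Nfe2 in level were Hipk1 (692 and 662), Gadd45a (724 and 676) and Slc1a5 (670 and 696). Likeness here is the distance of log2(coding-scaled TPM + 1) over 2 libraries, which was 0.0298, 0.0490 and 0.108. With 2 points it describes level, not a pattern across conditions.

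Among the CNC activators, Nfe2 accounted for 91.0% and 91.7% of the summed TPM (91.4% ± 0.455). By expected counts, which favour longer transcripts, its share was 80.5% ± 1.99. Nfe2l2, which encodes the oxidative stress regulator NRF2 (chr2:75675513-75704641, minus strand), had 1155 and 561 counts and 36.5 and 32.1 coding-scaled TPM (34.3 ± 3.16). Nfe2l1 (chr11:96817414-96829968, minus strand), which encodes NRF1, an endoplasmic reticulum-anchored activator of proteasome genes, had 1929 and 842 counts and 33.0 and 27.8 coding-scaled TPM (30.4 ± 3.62). The ranges of Nfe2l2 and Nfe2l1 overlapped, although Nfe2l2 was the higher of the pair in each library, by 1.11-fold and 1.15-fold. Nfe2 exceeded Nfe2l2 19.3-fold and 20.6-fold, and Nfe2l1 21.4-fold and 23.7-fold.

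Nfe2l3 (chr6:51432670-51458768, plus strand), which encodes NRF3, had 0 counts in both libraries. A count of 0 allows up to 3 counts, or 0.148 and 0.283 coding-scaled TPM at the listed gene length of 1521 bases. Nfe2 was 4764-fold above that level in replicate 1 and 2336-fold above it in replicate 2. For a shorter transcript the level would be higher and the fold lower. These limits, like the intervals below, cover counting error only.

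**Figure D2:**
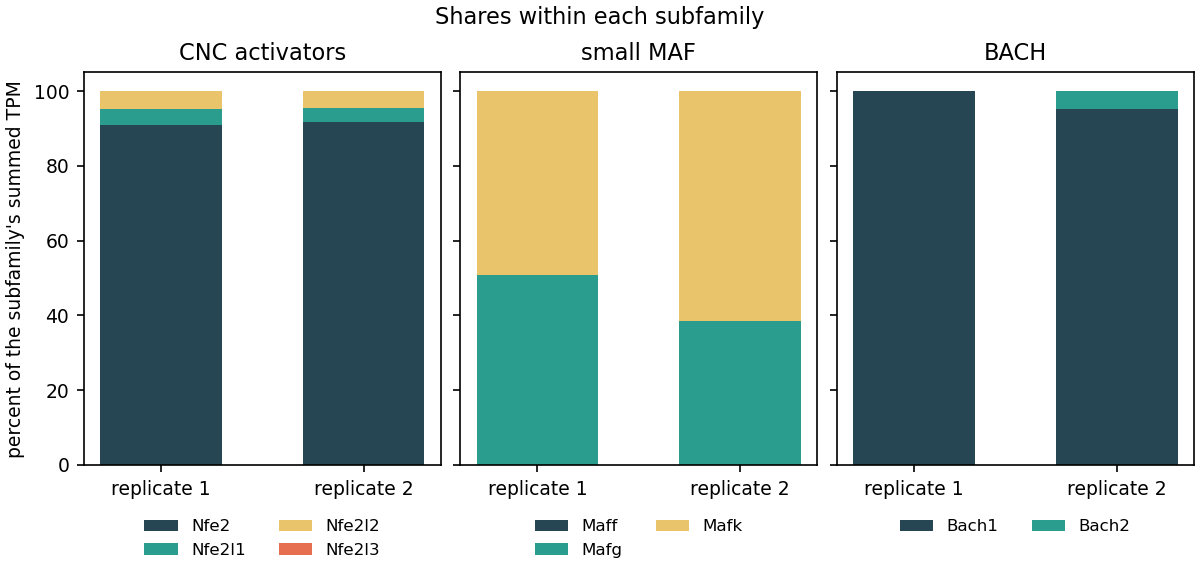
Percent of the summed TPM of each subfamily held by each gene, as stacked bars from 0 to 100 with 1 bar per library. Nfe2 holds 91.0% and 91.7% of the CNC activators and Bach1 100% and 95.2% of the BACH genes, while Mafk goes from 49.1% in replicate 1 to 61.4% in replicate 2.

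The obligate partners came from 2 genes in similar amounts. Mafk (chr5:139791513-139802653, plus strand), which encodes the p18 subunit of NF-E2, had 6037 and 4556 counts and 155 and 229 coding-scaled TPM (192 ± 52.3). Mafg (chr11:120625117-120633600, minus strand) had 5879 and 3340 counts and 161 and 144 coding-scaled TPM (152 ± 12.3). By coding-scaled TPM Mafg was the higher in replicate 1 and Mafk in replicate 2, and the ranges overlapped. The 2 genes could therefore not be ranked on this scale, where the ratio of Mafk to Mafg was 0.964 and 1.60. By expected counts Mafk was the higher in both libraries, with 50.7% and 57.7% of the small MAF sum. Of the 7 detected members, only Mafk had a spread above its like-level genes: its coefficient of variation was 27.2%, against a median of 12.8% over 746 genes. Exons of Mafg share 124 bases with Sirt7 on the same strand (1137 and 683 counts), so some reads there could belong to either gene. Mafk, Bach2 and Keap1 overlap exons of genes on the opposite strand, Tmem184a, Bach2os and Gm16754, which had 0 to 3 counts in each library.

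Maff (chr15:79346621-79359076, plus strand), a small MAF known for induction by inflammatory signals, had 0 counts in replicate 1 and 2 counts in replicate 2. In replicate 1 Mafk was 1361-fold above the level of 3 Maff counts at the listed gene length of 1919 bases. The nearest genes to Mafk in level were Wfdc21 (154 and 221), Csnk1a1 (163 and 231) and Myh9 (151 and 220), at distances of 0.0569, 0.0655 and 0.0726. Both Mafk and Mafg exceeded 10 of the 13 erythroid factors in each library. Mafk was above all 18 genes of the list of other bZIP factors in both, and Mafg above 18 in replicate 1 and 17 in replicate 2.

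The CNC activators summed to 776 and 720 coding-scaled TPM, the small MAF genes to 316 and 373, and the BACH genes to 61.5 and 62.9. RNA of the CNC and BACH partners was thus 2.65 and 2.10 times that of the small MAF genes (2.37 ± 0.387). Nfe2 alone was 2.23 and 1.77 times the small MAF sum. These are RNA ratios, and protein was not measured here. They depend on the correction for length. By expected counts Nfe2 (11682 and 6360) was below the sum of Mafk (6037 and 4556) and Mafg (5879 and 3340) in both libraries.

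Bach1 (chr16:87698945-87733346, plus strand), the heme-sensitive repressor, had 4101 and 2100 counts and 61.5 and 59.9 coding-scaled TPM (60.7 ± 1.12). It was the most even of the detected members, with a coefficient of variation of 1.85% where 1850 genes of like level had a median of 14.6%. Nfe2 exceeded Bach1 11.5-fold and 11.0-fold, while Bach1 exceeded Nfe2l2 1.68-fold and 1.87-fold. Bach1 was above 16 of the 18 genes of the list of other bZIP factors in both libraries. Bach2 (chr4:32238804-32586108, plus strand), known from B cells, had 0 counts in replicate 1 and 14 in replicate 2. Of those 14, 12 were assigned to Bach2-204, a noncoding transcript of 658 bases, and 2 to a coding transcript. In replicate 1 Bach1 was 952-fold above the level of 3 Bach2 counts at the listed gene length of 3243 bases. For a shorter transcript that fold would be lower. In replicate 2, where the listed length was 736 bases, Bach1 was at 59.9 and Bach2 at 3.05. Of the 6 B cell markers 2 were detected, Ighm (153 and 119) and Cd79b (7.55 and 3.34), while Pax5 was at 0 in both libraries.

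Keap1 (chr9:21229730-21239361, minus strand) had 443 and 181 counts and 9.51 and 7.25 coding-scaled TPM (8.38 ± 1.60). It was the lowest detected member, at percentile 53.1, and Nfe2l2 exceeded it 3.84-fold and 4.42-fold. In deposited TPM it was at 1.07 and 0.50 and so was not detected by a limit of 1 on that scale. Cul3, the scaffold of the ubiquitin ligase for which KEAP1 is the adaptor, was far higher, at 197 ± 21.9.

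Between neighbours in the order of levels, the mean fell 3.55-fold from Nfe2 to Mafk, 2.51-fold from Mafg to Bach1, 1.77-fold from Bach1 to Nfe2l2 and 3.63-fold from Nfe2l1 to Keap1. The libraries did not overlap at any of these 4 steps. They overlapped between Mafk and Mafg (1.26-fold) and between Nfe2l2 and Nfe2l1 (1.13-fold).

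The replicates were next compared with each other, gene by gene, as the log2 ratio of replicate 2 over replicate 1 of TMM-scaled counts. TMM is a scaling that centres the bulk of genes, and the exact Clopper-Pearson 95% intervals cover counting error only. With 1 library a side no gene was tested. Where the mean count reached 100, 10.4% of all 8204 Ensembl genes and 8.44% of the 7658 nuclear protein-coding genes were at least 2-fold apart, and of the 7 members that met this minimum 0 were. Maff, Bach2 and Nfe2l3 did not meet it. With so few members, a count of 0 is near what that background gives.

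Mafk had the largest of the members' ratios, 0.49 (interval 0.43 to 0.54), followed by Keap1 at -0.40 (-0.66 to -0.15) and Nfe2l1 at -0.30 (-0.42 to -0.19). Their counting intervals lay wholly on 1 side of 0. Nfe2 was at 0.02 (-0.03 to 0.06), Mafg at 0.08 (0.02 to 0.14) and Bach1 at -0.07. Nfe2 and Mafg changed sign with the scaling: with library size alone they were at -0.15 and -0.08, with coding-scaled TPM at -0.10 and -0.16, and with deposited TPM at -0.80 and -0.87. The median over all genes was -0.02 with TMM, -0.18 with library size alone, 0.03 with coding-scaled TPM and -0.67 with deposited TPM. Mafk was above that median under each scaling, although its own value was -0.14 with deposited TPM.

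**Figure D3:**
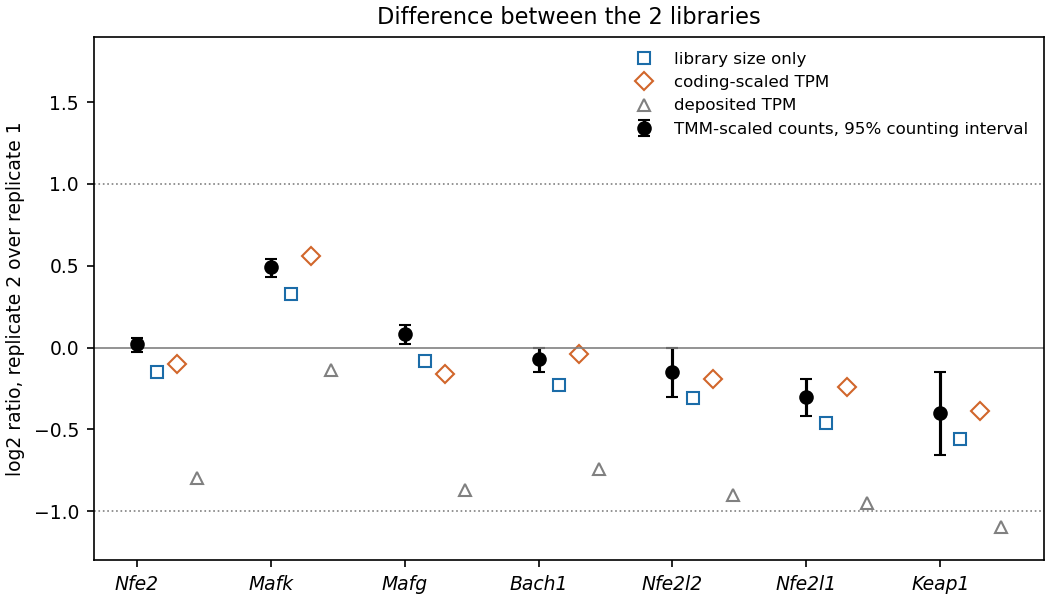
Log2 ratio of replicate 2 over replicate 1 for the 7 members whose mean count reached 100; black points are TMM-scaled counts with 95% counting intervals, and the open symbols to the right of each are the same ratio under 3 other scalings. Dotted lines mark 2-fold. All black points lie inside them, and the deposited TPM of Keap1 (-1.10) falls outside.

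The transcript tables divide each gene's TPM over annotated transcripts. All 52 transcripts of the 10 genes were matched to release M21, and 50 had the same length there. Shares of TPM weight short transcripts more than shares of counts do, so both are given.

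For Nfe2 the leading transcript by TPM was Nfe2-209, with 36.81% and 30.92% of TPM but only 20.1% and 15.7% of counts. It is an incomplete model of 784 bases whose reading frame is open at its 3′ end, and it spans chr15:103249239-103252810, so that it ends before the basic region printed above. Nfe2-208, of 1878 bases with a full frame of 1119 coding bases, held 17.23% and 27.82% of TPM and 26.7% and 38.6% of counts. The 5 Nfe2 transcripts with a complete reading frame together took 50.5% and 62.0% of TPM, and 73.8% and 81.0% of counts. Most of the Nfe2 counts in each library were thus assigned to full-frame models. Nfe2 transcripts fell into 5 groups of start sites, joined where they lay within 500 bases of each other. Starts at chr15:103251465-103251687 held 38.6% and 52.8% of TPM and 52.5% and 68.4% of counts. Those at chr15:103252810-103253152 held 44.8% and 36.1% of TPM and 24.4% and 18.3% of counts, and the upstream start at 103255439 held 16.7% and 10.6% of TPM and 23.1% and 13.2% of counts. The first of these groups led in both libraries by counts, but by TPM it led only in replicate 2.

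Nfe2l1 was divided between Nfe2l1-211 (4596 bases), at 42.00% and 37.69% of TPM and 48.1% and 42.9% of counts, and Nfe2l1-212 (3530 bases), at 27.76% and 47.87% of TPM and 24.1% and 41.4% of counts. Nfe2l1-211 has 2223 coding bases and Nfe2l1-212 has 1359, and the latter starts downstream, at chr11 position 96824127. By TPM the order of the pair was reversed between libraries. By counts Nfe2l1-211 was the higher in both, as it was by posterior mean TPM, with 31.73% and 28.01% against 18.42% and 23.84% for Nfe2l1-212. The deposited posterior SDs were 170 and 57.6 counts for Nfe2l1-211 and 109 and 100 for Nfe2l1-212, on counts of 928 and 361, and 465 and 349. The split is therefore poorly resolved.

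Nfe2l2-201 (2475 bases), the coding transcript, took 79.95% and 93.82% of the TPM of Nfe2l2 and 87.9% and 96.5% of its counts. The noncoding Nfe2l2-202 took 20.05% and 6.18% of TPM and 12.1% and 3.55% of counts.

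Mafk was simple, with Mafk-201 (2849 bases) at 86.07% and 87.88% of TPM and 89.5% and 92.4% of counts. Mafg-201 (4923 bases) held 42.85% and 55.59% of TPM and 84.5% and 88.4% of counts, and Mafg-202 (732 bases) held 34.09% and 20.45% of TPM and 7.70% and 3.96% of counts. Both have 486 coding bases.

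For Bach1, the coding Bach1-201 (5867 bases) had 64.64% and 67.28% of TPM and 83.7% and 85.1% of counts. The remaining 35.36% and 32.72% of TPM, or 16.3% and 14.9% of counts, was assigned to Bach1-203, annotated as a retained intron (2210 bases). This split was steady between the libraries. Keap1 was not steady: Keap1-205 had 75.93% of TPM in replicate 1 and 0% in replicate 2, Keap1-201 had 0% and 51.74%, and Keap1-202 had 24.07% and 48.26%. By counts the shares were 73.2% and 0%, 0% and 48.3%, and 26.8% and 51.7%. All 3 have 1872 coding bases, and the posterior SD of Keap1-201 was 86.8 counts in the library that lists it at 0, so Keap1-201 and Keap1-205 were not told apart reliably.

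**Figure D4:**
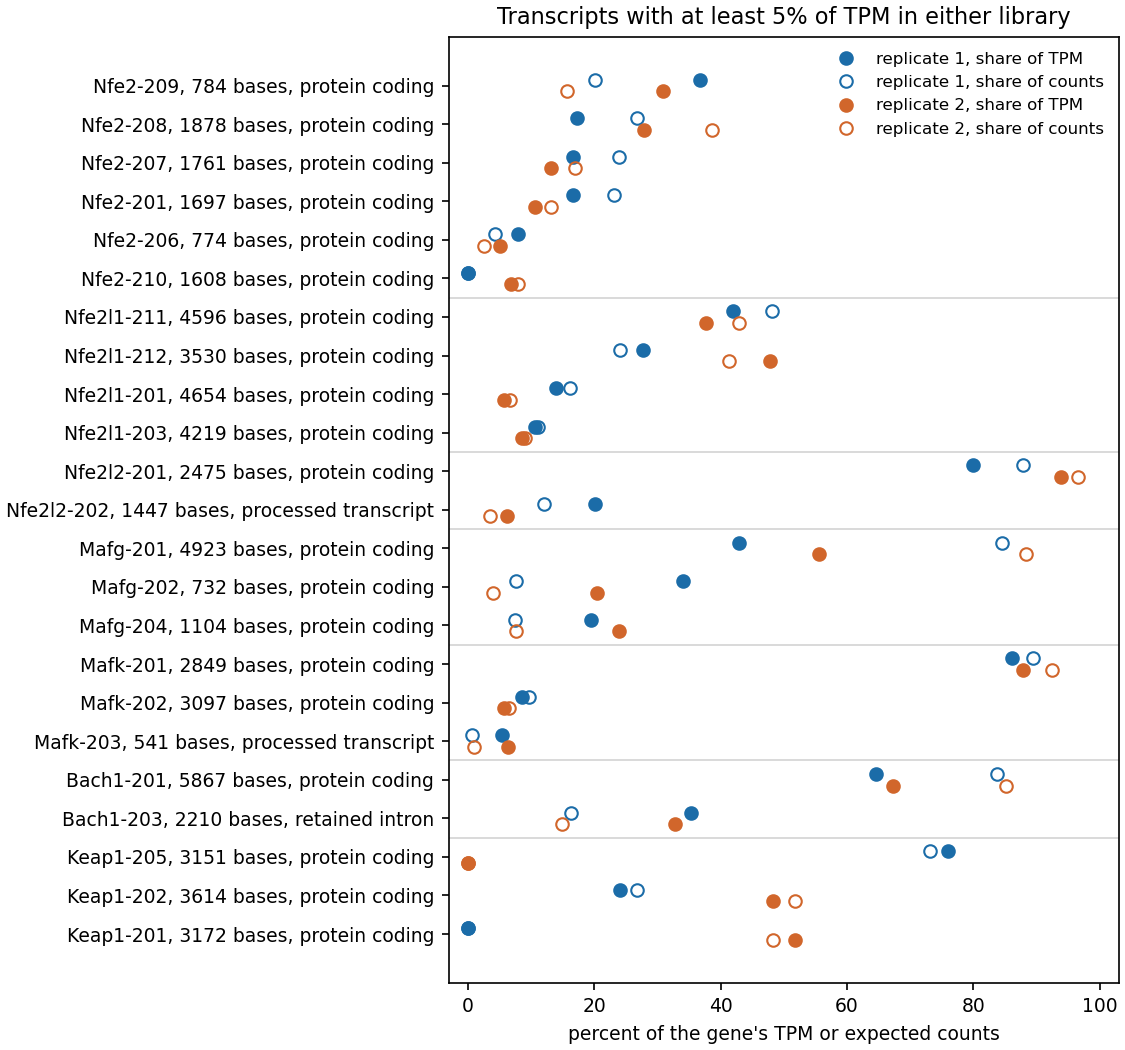
Percent of each gene's TPM (filled) and of its expected counts (open) held by each transcript with at least 5% of TPM in either library, blue for replicate 1 and orange for replicate 2, grouped by gene. Short models such as Nfe2-209 and Mafg-202 lie further right by TPM than by counts, while Mafk-201 stays between 86.07% and 92.4% on both measures.

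The promoters of the members were searched for 3 short motifs in RefSeq sequence on GRCm38.p6, from 250 bases before to 50 after each start. Of the 10 genes 9 had an entry, with 15 promoters in all, and Nfe2 had none. The NF-E2 core TGAGTCA, on either strand, was in 0 of the 15 and in 5.20% of all 32851 promoters. The antioxidant element core TGACNNNGC was in 4 of 15, those of Nfe2l2, Mafk, Mafg and Maff, and in 12.4% of all promoters. The GATA core AGATAA was in 2 of 15, Keap1 and Maff, and in 11.2% of all. Read on the opposite strand, the NF-E2 core can lie inside the antioxidant core. Windows with an antioxidant core are given for 3 genes, 50 bases each, 5′ to 3′ on the gene's strand with the match in capitals, to show the match in Nfe2l2 and in small MAF genes. The Mafk window is not printed, because it reaches into the annotated Mafk transcript; its match, on the opposite strand, began 13 bases before the RefSeq start.
Nfe2l2 (chr2:75704864-75704913, minus strand): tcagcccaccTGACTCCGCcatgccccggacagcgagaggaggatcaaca
Mafg (chr11:120633741-120633790, minus strand): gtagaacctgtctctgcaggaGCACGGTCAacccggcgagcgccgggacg
Maff (chr15:79346488-79346537, plus strand): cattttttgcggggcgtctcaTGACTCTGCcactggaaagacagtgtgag
The match lay on the gene's own strand in Nfe2l2 and Maff and on the opposite strand in Mafg. Mafg was among the highest members and Maff among the lowest, so members with this match were found at both ends of the range. The Maff match lay in 1 of its 3 promoters, before a start at chr15:79346621. The deposited Maff transcripts start downstream of it, at 79347520 and 79348064. A match is a description of these letters only.

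Genes that act on or with the members were read from lists chosen by their known roles, with earlier results of these data known. They were set beside the median of 6.99 ± 0.0409 over the 12895 coding genes. The 16 partners and turnover genes, which modify, process or degrade these factors, were all detected, with a median of 22.7 ± 5.89. Highest were Sqstm1 (640 ± 18.2), an autophagy receptor that binds KEAP1, Ogt (527 ± 52.0), the enzyme that adds N-acetylglucosamine to nuclear proteins, and Cul3, and lowest was Dpp3 (6.91 ± 1.16), another KEAP1-binding protein. Cul3 exceeded Nfe2l2 in both libraries, since the ratio of Nfe2l2 to Cul3 was 0.201 and 0.151. None of the 16 was 2-fold apart between libraries by TMM-scaled counts, although by coding-scaled TPM Sel1l was at 14.3 and 30.6.

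Large MAF genes, which carry an activation domain and are not members, were low. Maf was at 3.12 ± 1.75, while Mafa and Nrl had 0 counts in both libraries. Each of these lay below Mafk and Mafg in both libraries. The list of 18 other bZIP factors, Cebpz included, had 15 detected and a median of 17.0 ± 1.50. It was led by Atf4 (149 ± 1.13), Atf2 (81.8 ± 4.04) and Ddit3 (43.4 ± 13.1), with Fosl1 lowest (2 and 0 counts). The 13 erythroid factors were all detected, with a median of 53.5 ± 1.10. After Sox6 the highest were Lmo2 (622 ± 39.1) and Zfpm1 (338 ± 204), and Stat5a (6.39 ± 0.633) was the lowest.

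Known targets of the members varied widely in level. Of 22 antioxidant element targets, which NFE2L2 activates, 18 were detected, with a median of 43.8 ± 5.14. Sqstm1 (640 ± 18.2), Gclm (493 ± 230), the modifier subunit of the enzyme that starts glutathione synthesis, and Taldo1 (433 ± 80.9), of the pentose phosphate pathway, were highest, and Gsta3 had 0 counts. The 10 targets of BACH1 in heme and iron handling were all detected, with a median of 996 ± 72.7. This list includes the adult globin genes, which are also erythroid markers here and raise its median. Its other genes ranged from Hmox1 at 64.5 ± 2.57 to Fth1 at 1098 ± 69.3. The globin genes Hba-a2 (259461 ± 33401), Hbb-bt (44044 ± 6196) and Hbb-bs (33776 ± 7515) were highest, and reads of the near-identical alpha globin copies may be divided uncertainly. Hmox1 (64.5 ± 2.57), the heme-degrading enzyme and a classical BACH1 target, was lowest, at about the level of Bach1 itself (60.7 ± 1.12). Fth1 (1098 ± 69.3) and Ftl1 (894 ± 215), the ferritin genes, are named after their values were seen.

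The 31 proteasome genes, which NFE2L1 activates when proteasome capacity is short, were all detected with a median of 59.2 ± 1.31. Psma2 (142 ± 61.6), Psmd4 (133 ± 35.4) and Psmd6 (114 ± 1.91) led and Psmb5 (15.5 ± 1.84) was lowest. Psmb2 was the only proteasome gene at least 2-fold apart, at -1.08 (interval -1.45 to -0.73). In contrast, only 4 of the 8 megakaryocyte and platelet targets of NFE2 were detected, and their median was 1.31 ± 0.413. Tbxas1, thromboxane synthase, was at 89.1 ± 1.42, Pf4 at 8.77 ± 6.45, Rab27b at 1.69 ± 0.750, and Hsd3b6 had 0 counts. The median of this list was below that of all coding genes. The part of megakaryocytes in the level of Nfe2 (683) was not tested.

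**Figure D5:**
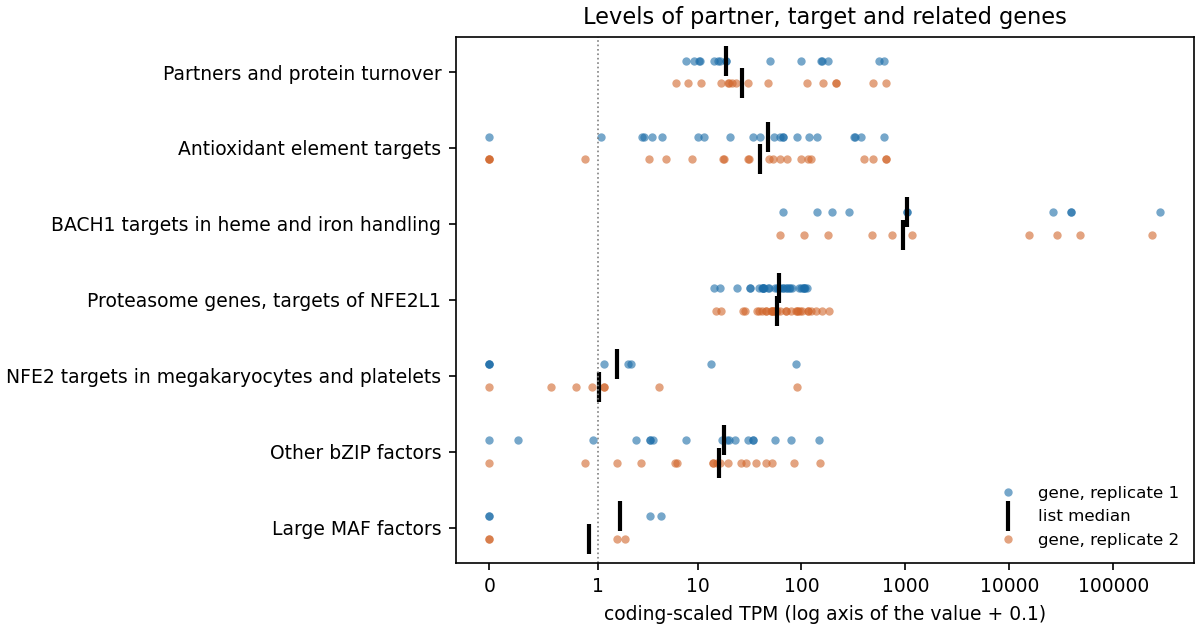
Coding-scaled TPM of the genes of 7 lists, 1 point per gene and library, on a log axis of the value + 0.1, with a black bar at each library's median. The dotted line is at 1. The BACH1 target list, which includes globin genes, has the highest medians (1047 and 944), and the megakaryocyte targets and large MAF genes have the lowest.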

How the data were processed

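Total RNA of 2 erythroblast libraries was sequenced by the authors. Per the labels, 100 ng of RNA depleted of ribosomal RNA went into a ScriptSeq kit, with size ranges of 200 to 764 and 138 to 1000 (unit not given). The assembly is mm10 per the labels, and the deposited records name GENCODE release M4. Neither the aligner nor the quantification program is given in the sources used here. The deposited tables hold, per the file headers, expected counts with posterior SDs, TPM and posterior mean TPM as shares of all 69691 features, and FPKM, which was not used. The interval bounds, a signal column, were likewise deposited by the authors and not used for any result. Each transcript also has a percent of its gene's TPM, per the file headers.

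Symbols came from GENCODE release M21 (GRCm38), which matched 42462 of 43346 Ensembl genes. Features outside Ensembl genes (8 and 28 counts) were left out of library sizes. Counts were rounded and scaled with TMM factors (edgeR 4.0.16, R 4.3.3) from 12757 genes whose mean count reached 10. The scaling was tested on simulated data. DESeq2 1.42.0 size factors, library size alone, deposited TPM and coding-scaled TPM were alternatives, the last chosen after seeing the data. A count of 0 allows up to 0.0804 and 0.134 CPM. The named genes were all 10 members, and of each list the 3 highest, the lowest, those at 0 in both libraries where 5 or fewer, and those 2-fold apart. Cd68 (-1.26, interval -1.51 to -1.01) was the only other listed gene 2-fold apart. Named transcripts were the leading one of each detected member and any with at least 20% in both libraries. Some genes of the marker and related lists are not reported here by name. Members and lists were chosen with earlier results of these data known. Computation used Python 3.11.15 with pandas 2.3.3, scipy 1.17.1 and matplotlib 3.10.9.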

Additional observations from a re-analysis of the deposited data

How the results depend on the processing

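The level of Nfe2 depended on the denominator: it was 62.5 in deposited TPM and 1068 with globin genes left out of the coding sum, against 683. Its share of the CNC activators was 90.8% by posterior mean TPM and 80.5% by expected counts, against 91.4%. The number of members detected was 7, and 6 with a limit of 1 deposited TPM. Of the members, 1 (Keap1) was at least 2-fold apart by the ratio of TPM, and 2 (Maff and Bach2, each at 0 counts in replicate 1) without a filter on low counts, against 0. The ratios of Nfe2 and Mafg changed sign with the scaling, as given above. Leaving out either library moved each level and share so recomputed by less than 1 SD, which follows from having 2 libraries, and gave 7 to 8 members detected, the eighth being Bach2 in replicate 2. Depth limits the 3 members with 14 counts or fewer, and length-corrected levels of Bach2 rest on a single short transcript. No paired analysis was possible because there is 1 group and no second group to pair with.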
